A study of Mus musculus with 135 samples.

Results

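The cortex of sickle mice that went through repeat social defeat while drinking minocycline was compared to the cortex of untreated sickle mice. The members were all cortical RNA libraries of SS mice with both exposures and of SS mice with neither, taken from mice whose label number began with 56 to 59 or with 97 to 99, so that both groups came from one number series. This gave 18 of the 135 libraries of the series, of which 12 came from the SS + RSD + minocycline group and 6 from the SS group.

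The study used male Townes mice, in which the mouse globin genes are replaced by human ones, the sickle form in SS mice and the normal form in AA mice. Every SS mouse, treated or not, therefore carried the human sickle globin genes. Repeat social defeat (RSD) placed an aggressive male into the home cage for a session each day on consecutive days. Minocycline was given in the drinking water from the day before the first session to the day of the last, and brains were collected after behavioral testing. The SS group received neither the aggressor nor the drug, so the 2 exposures cannot be told apart in this comparison. The lower number range held 5 treated and 2 untreated mice, and the higher one 7 treated and 4 untreated mice.

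As background, sickle cell disease exposes the brain to hemolysis, vessel occlusion and inflammation, and the brain endothelium is one of the tissues it damages. Minocycline is a tetracycline antibiotic that enters the brain and dampens microglial activation. Social defeat is a psychological stressor that in mice engages the glucocorticoid axis, microglia and neuronal activity. Immediate early genes are switched on within minutes by calcium and growth factor signals in active neurons, and several encode transcription factors that drive a later set of synaptic genes.

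The libraries held between 16295042 and 107713193 reads on genes, with a median of 25866122 in SS and 33711634 in SS + RSD + minocycline. Of the treated libraries, 8 carried library numbers 30 to 37 and 4 carried 51 to 54, while all SS libraries carried 15 to 20. The 4 libraries numbered 51 to 54 stood apart from the others. Reads outside annotated genes made up 4.87 to 6.09% of their reads, against 8.63 to 11% in SS and 9.66 to 12.1% in treated libraries 30 to 37. The summed level of a list of 29 splicing and nuclear-retained RNAs was 5980 to 10500 CPM (read counts scaled to a common library size, with TMM factors) in these 4, 15700 to 18300 in SS and 15200 to 20200 in treated libraries 30 to 37. No SS library came from that range, so the main values are given for all 12 treated mice and again for libraries 15 to 37. These held 8 treated and 6 untreated mice. Among them SS libraries were all 15 to 20 and treated ones all 30 to 37. Group and library number therefore cannot be told apart in either setting. In hippocampus the same 8 treated mice and 5 untreated mice carried library numbers 15 to 36, the treated 29 to 36 and the untreated 15 to 19. The 4 mice of libraries 51 to 54 stood apart there as well. Snhg11, a nuclear-retained RNA, was at 400 to 528 CPM in their hippocampus and 2040 to 3620 in the other mice. Rps29, a ribosomal protein gene, was at 423 to 672 against 148 to 278. The labels do not say what a library number stands for. Label checks found 663 to 5047 reads of the Y-linked Ddx3y in every library and 0 to 8 reads of the replaced mouse globin gene Hbb-bs. The excitatory neuron markers, which define the tissue as neuronal, summed to 4070 to 8320 CPM and all 10 were detected.

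Markers of neighboring brain regions also varied between the libraries. The 10 striatal markers, among them the dopamine receptor genes Drd1 and Drd2 and the enkephalin gene Penk, summed to between 227 and 411 CPM in SS, with a median of 258. In SS + RSD + minocycline the sum ran from 217 to 1530 CPM, with a median of 552. It was above the highest SS library in 4 of the 8 treated libraries 30 to 37 and in 3 of the 4 libraries 51 to 54, and was highest in mice 9813 (1530) and 9890 (1230). The choroid plexus markers summed to 202 to 256 CPM in 5 SS mice and to 1710 CPM in SS mouse 9903, against 163 to 319 CPM in the treated. The microglial markers summed to 318 to 387 CPM in SS, 333 to 416 in treated libraries 30 to 37 and 525 to 627 in libraries 51 to 54. In bulk cortex, more cells of a type and more RNA per cell cannot be told apart.

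**Figure D1:**
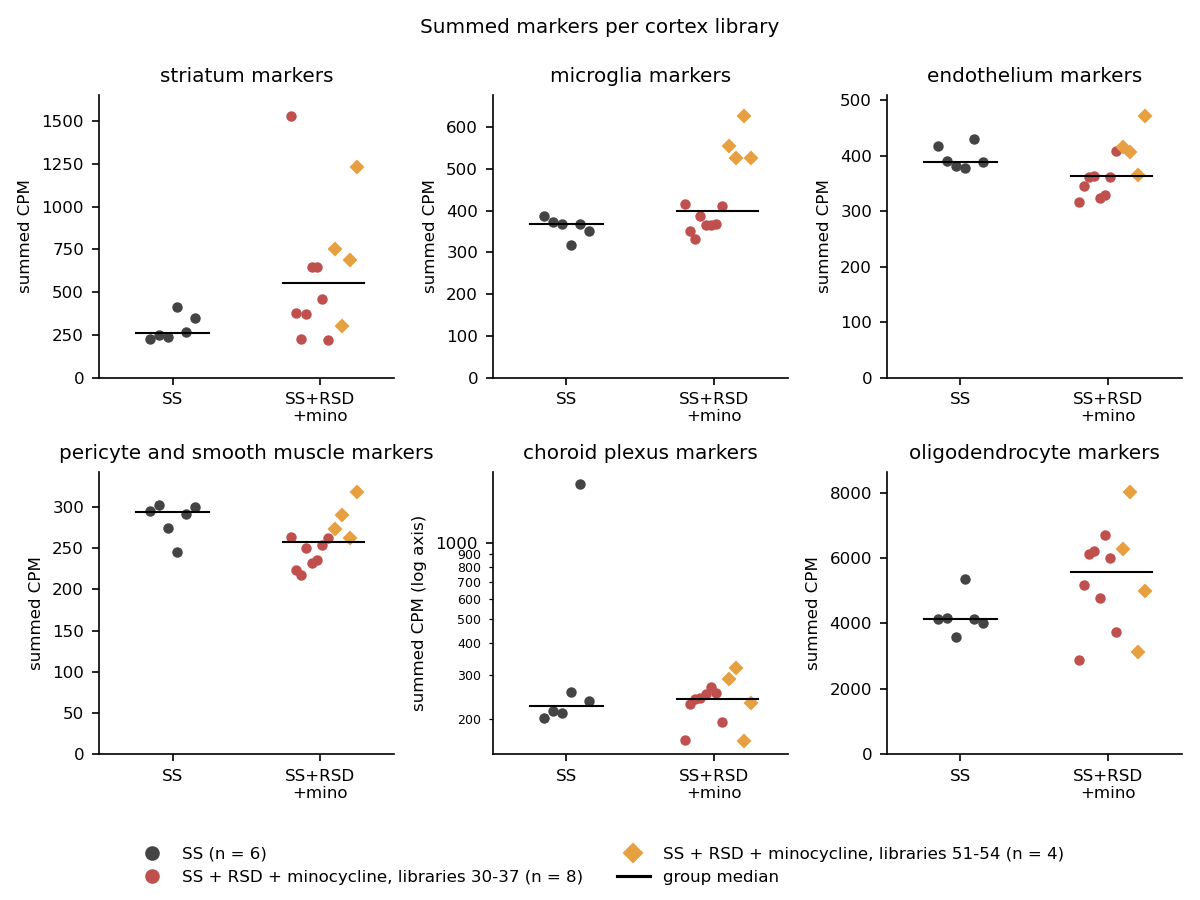
Summed CPM of 6 marker lists (y axis, linear except for choroid plexus) in each cortex library of the SS and SS + RSD + minocycline groups, with horizontal lines at group medians. Striatal sums spread from 217 to 1530 CPM among treated mice, microglial sums are highest in libraries 51 to 54 (525 to 627 CPM), and the choroid plexus sum of 1710 CPM belongs to 1 SS mouse.

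No gene differed between the groups after correction. Of 20996 genes tested with edgeR's quasi-likelihood test, 0 had a Benjamini-Hochberg adjusted p below 0.05 (0% called), and the smallest adjusted p was 0.102. DESeq2 on the same libraries called 4 genes, all lower in treated mice. At an unadjusted p below 0.05 there were 1707 genes (8.13% of those tested), 1256 higher (5.98%) and 451 lower (2.15%). In libraries 15 to 37, 0 of 17394 genes passed after adjustment (0% called) and 1137 (6.54%) were at an unadjusted p below 0.05, 623 higher (3.58%) and 514 lower (2.96%). These shares are the background against which every list count below is set. Of the 1707 genes with all libraries, 73.6% were higher, but 59.1% were with DESeq2's size factors (RLE) and 54.8% in libraries 15 to 37. The median log2 fold change of all genes was 0.04. For the 13473 genes averaging log2 CPM 1 or more, the median standard error was 0.13, and the 95% interval of 12915 of them (95.9%) lay within 1 log2 unit either side of 0. Adding the summed striatal markers as a term to a model of the 18 libraries left 158 genes higher (0.886%) and 230 lower (1.29%) at an unadjusted p below 0.05, against 777 and 526 in the same model without it.

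The 8 genes of smallest p in the lower direction were Ttr, Robo4, Egr3, Eng, Tbx3, Fosb, Traf5 and Nrf1, of which Robo4 and Eng are endothelial and Egr3 and Fosb mark active neurons. Levels below are CPM. Genes picked by smallest p separate the groups in part because of the pick. The share of all genes whose groups do not overlap was not counted. Opposite-strand genes also overlap between 10 and 20% of the exonic length of Eva1a, Bdnf, Cx3cl1, Sox17, Sirt2, Slc32a1 and Ntf3. Every gene named had an adjusted p above the threshold, and apart from Ttr, Robo4, Egr3, Eng, Tbx3 and Fosb it was 0.605 or more. Robo4, an endothelial guidance receptor that restrains vessel permeability (GRCm39, chr9:37313193-37326411), ranged from 11.04 to 13.5 in SS with a median of 11.98, and from 7.16 to 11.5 in treated mice with a median of 8.94. The level was below all SS mice in 11 of 12 treated mice, with a log2 fold change of -0.45 ± 0.09 (SE, edgeR adjusted p = 0.306). Eng, the endoglin co-receptor for transforming growth factor beta on endothelium (chr2:32535543-32574661), ranged from 35.03 to 44.1 in SS with a median of 40.1. It ranged from 24.4 to 38.5 in treated mice with a median of 32.1, again below all SS mice in 11 of 12 (log2 fold change -0.34 ± 0.08, adjusted p = 0.562). An opposite-strand gene, Fpgs, overlaps 11% of the exonic length of Eng, and the strand column the authors counted is not given in the sources used here.

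Tbx3, a T-box transcription factor (chr5:119806298-119822797), ranged from 3.24 to 6.32 in SS with a median of 4.49. It ranged from 1.45 to 4.09 in treated mice with a median of 2.50, and was below all SS mice in 10 of 12 (log2 fold change -0.84 ± 0.19, adjusted p = 0.562). Its antisense partner Tbx3os1 overlaps 18.3% of its exonic length. In AA cortex the log2 fold change of Tbx3 for the same contrast was -0.00054, and the SS change minus the AA change was -0.87 (unadjusted p = 0.0017, adjusted p = 0.506). Robo4, Eng, Tbx3 and Egr3 were the 4 genes that DESeq2 called, with adjusted p of 0.010, 0.023, 0.041 and 0.023. Nos3, the endothelial nitric oxide synthase, ranged from 11.4 to 19.7 in SS and from 8.97 to 13.2 in treated mice (log2 fold change -0.38 ± 0.10, adjusted p = 0.605). Nos3 is outside the 8, and the predicted opposite-strand gene Gm15587 overlaps 32.7% of its exonic length. Nrf1, a regulator of nuclear genes for mitochondrial proteins, was the one gene of the 8 whose groups did not overlap, at 21.3 to 24.3 in SS and 13.98 to 20.5 in treated mice (log2 fold change -0.31 ± 0.08). Traf5, an adaptor of tumor necrosis factor receptors, ranged from 4.02 to 10.1 in SS and from 2.36 to 5.39 in treated mice, with a log2 fold change of -0.75 ± 0.19.

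In libraries 15 to 37 the log2 fold changes were -0.35 for Robo4, -0.35 for Eng, -0.89 for Tbx3, -0.34 for Nos3, -0.27 for Nrf1 and -0.64 for Traf5. All kept their direction without libraries 51 to 54. SS mouse 9903 held the highest SS level of Eng, Tbx3, Nos3, Nrf1 and Traf5. It was at 6.32 CPM for Tbx3 (other SS mice 3.24 to 4.98) and 19.7 for Nos3 (11.4 to 15.4). For Traf5 it was at 10.1 (4.02 to 7.06), for Eng at 44.1 (35 to 43.7) and for Nrf1 at 24.3 (21.3 to 23.1). In the hippocampus of the same mice, of which 5 of the 6 SS mice were analysed, the corresponding log2 fold changes were -0.23, -0.08, -0.33, -0.21, -0.18 and -0.19, and -0.10, -0.02, -0.19, -0.11, -0.11 and -0.12 in hippocampal libraries 15 to 36.

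Ttr, the transthyretin made by choroid plexus epithelium (chr18:20797253-20807467), had the smallest p of all genes, and 1 mouse decided it. Its level was 1085 CPM in SS mouse 9903 and 2.23 to 8.2 in the other 5 SS mice, against 1.21 to 15.01 in treated mice. The log2 fold change was -5.18 ± 0.93 with all mice (adjusted p = 0.102) and 0.15 without mouse 9903 (adjusted p = 0.964). Of the 12 choroid plexus markers 11 were tested, all with negative log2 fold changes and a median of -1.24, and without mouse 9903 their median was 0.71.

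The 8 genes of smallest p in the higher direction were Nxph4, Eva1a, Gfap, Ly86, Tigd3, Kif6, Gpatch11 and Bloc1s5. Nxph4, a neurexophilin secreted by neurons (chr10:127361339-127370463), ranged from 1.23 to 1.63 in SS with a median of 1.46. It ranged from 1.95 to 11.4 in treated mice with a median of 2.56, above all SS mice in 12 of 12 (log2 fold change 1.38 ± 0.34). The highest levels were in mice 5801 (11.4), 9890 (6.91) and 9813 (5.18), which were also among the 4 mice highest in striatal markers. With the striatal sum as a term the log2 fold change of Nxph4 was 0.72.

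Gfap, the intermediate filament of astrocytes (chr11:102778159-102791738), ranged from 44.7 to 108 in SS with a median of 80.4 and from 75 to 230 in treated mice with a median of 115. The 4 libraries 51 to 54 held its 4 highest levels (144 to 230), and the log2 fold change was 0.70 ± 0.19 with them and 0.36 without. Ly86, a partner of the microglial receptor RP105, ranged from 4.17 to 6.02 in SS and from 5.97 to 14.9 in treated mice, with 9.95 to 14.9 in libraries 51 to 54. Its log2 fold change was 0.75 ± 0.21 with these libraries and 0.41 without. Eva1a, a regulator of autophagy and cell death, ranged from 5.45 to 7.72 in SS and from 6.56 to 14.2 in treated mice (log2 fold change 0.49 ± 0.12). Tigd3, Kif6, Gpatch11 and Bloc1s5 had log2 fold changes of 0.39, 0.45, 0.40 and 0.37, and 0.32, 0.45, 0.25 and 0.22 in libraries 15 to 37.

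**Figure D2:**
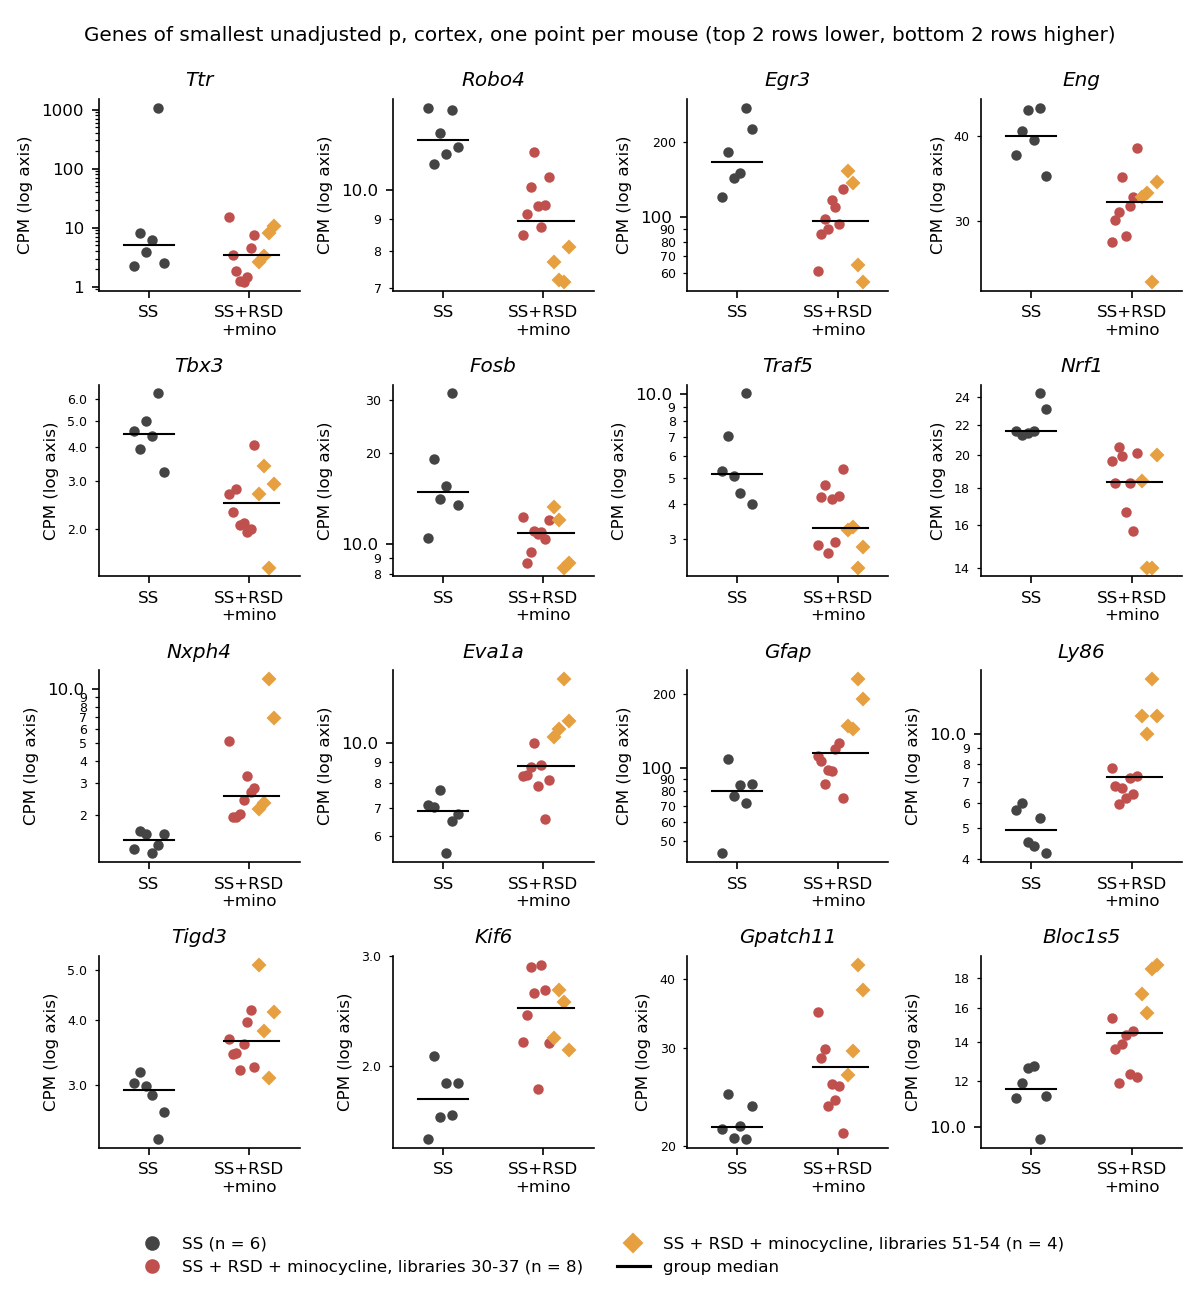
CPM on log axes (y) of the 8 genes of smallest unadjusted p in each direction for each cortex library of the SS and SS + RSD + minocycline groups, with lines at group medians. Nrf1 and Nxph4 show no overlap between groups, which picking genes by smallest p favors. The Ttr difference rests on 1 SS mouse at 1085 CPM, and libraries 51 to 54 hold the 4 highest levels of Gfap, Ly86, Eva1a and Bloc1s5.

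Immediate early genes had the lowest median of the 31 gene lists, the marker lists aside. All 25 were tested, 20 had negative log2 fold changes, and 10 were lower at an unadjusted p below 0.05 against 0 higher, a share of the list to be set beside the 2.15% of all genes. None passed the adjusted threshold. The median log2 fold change was -0.39, and it was also -0.39 in libraries 15 to 37, where 24 of 25 were negative and 10 were lower at an unadjusted p below 0.05 (background 2.96%). The count was 4 without SS mouse 9903 (background 1.12%), 6 without SS mouse 9848 (2.04%), and 7 in libraries 15 to 37 without mouse 9903 (1.97%). With the summed striatal markers as a term, 6 were lower (background 1.29%) and the median was -0.17.

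Egr3, a zinc finger factor induced by synaptic activity (chr14:70314350-70320063), ranged from 120 to 273 CPM in SS with a median of 166, and from 55.4 to 153 in treated mice with a median of 96.5. The level was below all SS mice in 9 of 12 treated mice and below the SS median in all 12. The log2 fold change was -0.87 ± 0.18 with a 95% interval from -1.25 to -0.49 (adjusted p = 0.374). Fosb, which encodes an AP-1 subunit (chr7:19036621-19043976), ranged from 10.5 to 31.5 in SS with a median of 14.9. It ranged from 8.39 to 13.3 in treated mice with a median of 10.9. The log2 fold change of Fosb was -0.70 ± 0.16 (adjusted p = 0.562). SS mouse 9903 held the highest SS value of Egr3, Fosb, Nptx2 and Bdnf. Over 30 alternative settings, leaving out that mouse among them, the log2 fold change of Egr3 ran from -0.97 to -0.71. That of Fosb ran from -0.82 to -0.45. Nptx2, a secreted pentraxin that clusters glutamate receptors (chr5:144482692-144500381), ranged from 33.1 to 67.3 in SS and from 22.2 to 55.9 in treated mice (log2 fold change -0.55 ± 0.16). Bdnf, the brain-derived neurotrophic factor (chr2:109505045-109557475), ranged from 20.6 to 42.5 in SS and from 13.2 to 29.4 in treated mice (log2 fold change -0.46 ± 0.14).

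Homer1, whose short activity-induced form uncouples glutamate receptors from their scaffold, ranged from 104 to 333 in SS and from 70.3 to 194 in treated mice (log2 fold change -0.61 ± 0.21). The count table does not separate its short form from the long one. The highest SS level of Homer1, 333, was in mouse 9903, and the other SS mice were at 104 to 193. The other 5 members lower at an unadjusted p below 0.05, named after their values were seen, were Egr2, Fosl2, Egr1, Nr4a1 and Nr4a3, with log2 fold changes of -0.93, -0.49, -0.49, -0.47 and -0.44. Arc and Fos, which mark recently active neurons, had log2 fold changes of -0.47 ± 0.34 and -0.45 ± 0.31, neither at an unadjusted p below 0.05. Junb, Jund, Npas4, Btg2 and Jun were the members with positive values, from 0.02 to 0.16.

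As background, many immediate early genes carry a cyclic AMP response element near their start. The letters of its core are shown here for 4 members as a sequence that many of the list have in common. RefSeq promoter windows (GRCm38.p6) matched 20 of the 25 members. Of the 20, 15 (75%) held TGACG on either strand in the 250 bases before a listed start, against 19.8% of 27025 genes of all kinds. A gene with several windows has more chances to match. By window the share was 18 of 32 (56.2%) against 17.8% of 32851 windows. The windows of 30 bases below lie upstream of the start, read 5′ to 3′ along the gene's strand, with TGACG or its reverse complement CGTCA in capitals. A match describes the letters of the core only, does not show a full element and is no evidence of binding. The list and all genes were not matched for base composition. The Fosb window is chr7:19310088-19310117 (minus strand), Fos is chr12:85473812-85473841, Homer1 is chr13:93303727-93303756 and Nr4a1 is chr15:101266794-101266823 (all plus strand).
Fosb: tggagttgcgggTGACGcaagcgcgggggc
Fos: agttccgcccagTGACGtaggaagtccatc
Homer1: gcggagaggagcgcgcTGACGttgctattt
Nr4a1: cccctctccatgCGTCAcggagcgcttaag

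The list had mostly positive values in the hippocampus. There 18 of 25 members had positive log2 fold changes with a median of 0.21, and 5 were higher and 1 lower at an unadjusted p below 0.05, against backgrounds of 7.86 and 8.4% (16.3% in either direction). Egr3 had a log2 fold change of 0.04 ± 0.08, Egr1 of 0.46 ± 0.15, Arc of 0.41 ± 0.17, Nptx2 of 0.34 ± 0.18 and Bdnf of 0.23 ± 0.16, and Fosb of -0.24 ± 0.11. Hippocampal Bdnf was 43.7 to 74.9 CPM in the 4 mice of cortical libraries 51 to 54, 29.7 to 39.1 in the other 8 treated mice and 32 to 42.1 in SS. In hippocampal libraries 15 to 36, 17 of the 25 immediate early genes were positive with a median of 0.13, and 3 were higher and 0 lower at an unadjusted p below 0.05 (backgrounds 3.11 and 3.26%). The log2 fold change there was -0.07 for Bdnf, 0.10 for Nptx2, -0.0063 for Egr3, 0.52 for Egr1 and 0.40 for Arc. The difference between tissues was tested with the mouse as a block in the 12 treated and 5 untreated mice with both libraries. The cortical change minus the hippocampal change was negative for 24 of 25 members with a median of -0.48, and 14 were lower at an unadjusted p below 0.05 (background 2.6%, and 6.12% in either direction). No gene passed after adjustment, and Nptx2 had the smallest p of the list (log2 difference -0.83, unadjusted p = 6.8e-05, adjusted p = 0.445). For Egr3 the difference was -0.96 (adjusted p = 0.790), and for Egr1 and Arc it was -0.90 and -1.03. Without libraries 51 to 54 in cortex and their mice in hippocampus, 24 of 25 immediate early genes were again negative with a median of -0.47, and 11 were lower at an unadjusted p below 0.05 (backgrounds 3.66% lower and 3.27% higher). The difference was then -0.72 for Nptx2, -0.91 for Egr3 and -0.52 for Bdnf.

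In the cortex of AA mice, which share no library with the SS mice, Egr3 had a log2 fold change of -0.76, Nptx2 of -0.53, Fosb of -0.49 and Bdnf of -0.32 for the same contrast (15 treated and 8 untreated mice). Of the 25 members, 18 were negative in AA cortex with a median of -0.11, and 5 were lower at an unadjusted p below 0.05 against 3.92% of all genes (1.79% were higher and 5.71% either). Of the list, 1 member passed the adjusted threshold there, where 0.928% of all genes did. The SS change minus the AA change was -0.14 for Egr3 (unadjusted p = 0.608) and -0.05 for Nptx2 (unadjusted p = 0.846), so no difference between genotypes was detectable for either gene.

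**Figure D3:**
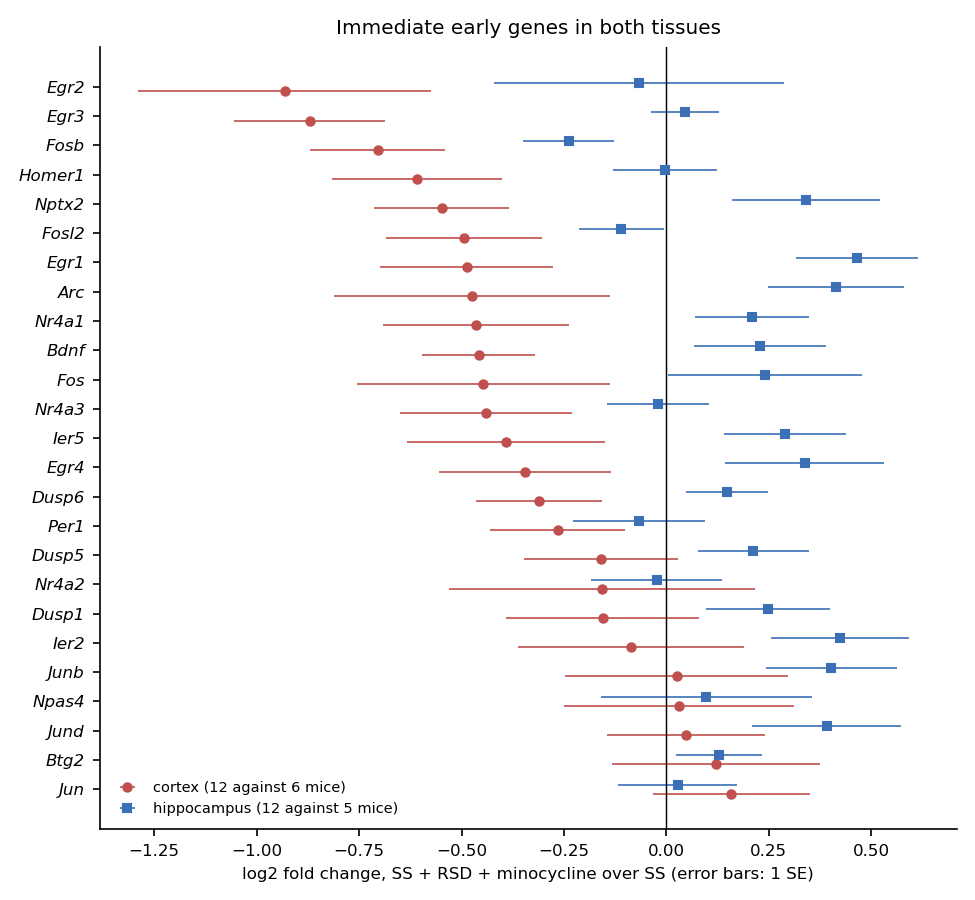
Log2 fold change of SS + RSD + minocycline over SS (x axis) with bars of 1 SE for 25 immediate early genes in cortex (circles) and hippocampus (squares). In cortex 20 of 25 points lie below 0, with Egr2 and Egr3 lowest, and in hippocampus 18 of 25 lie above 0.

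Genes of the vessel wall had low medians once libraries 51 to 54 were left out. Of 22 blood-brain barrier and endothelial genes 12 had negative log2 fold changes with all libraries, and 3 were lower at an unadjusted p below 0.05 (background 2.15%), Flt1, Sox17 and Foxf1. In libraries 15 to 37, 20 of 22 were negative with a median of -0.16, and 6 were lower at an unadjusted p below 0.05 (background 2.96%). The vascular endothelial growth factor receptor gene Flt1 ranged from 107.5 to 129 CPM in SS and from 67.4 to 122 in treated mice (log2 fold change -0.26 ± 0.11). Kdr, the main signaling receptor for the same factor, had a log2 fold change of -0.24 ± 0.12. Of the 10 endothelial markers, 7 were negative with all libraries and 10 in libraries 15 to 37, where the median was -0.24. Their sum was 378 to 430 CPM in SS, 317 to 408 in treated libraries 30 to 37 and 365 to 472 in libraries 51 to 54. The 10 pericyte and smooth muscle markers had a median of -0.12 with all libraries, and all 10 were negative with a median of -0.26 in libraries 15 to 37, among them Pdgfrb and Rgs5.

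In the hippocampus the blood-brain barrier and endothelium list had a median of 0.04 with 0 members past an unadjusted p of 0.05, and a median of -0.03 with 2 lower in libraries 15 to 36. With the striatal sum as a term, 0 of 22 cortical members passed an unadjusted p of 0.05 (backgrounds 0.886% higher and 1.29% lower). The median was -0.04 with the term and -0.04 with all libraries and no term. Of 11 vascular activation genes tested, 1 was lower (Nos3) and 2 were higher (Vcam1 and Lcn2) at an unadjusted p below 0.05 (backgrounds 2.15 and 5.98%). Vcam1, an adhesion molecule of inflamed endothelium, had a log2 fold change of 0.42 ± 0.16 with all libraries and 0.12 in libraries 15 to 37. Lcn2 ranged from 0.18 to 0.52 CPM in SS and reached 5.3 in 1 treated mouse, with a treated median of 0.34.

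Heat shock and chaperone genes depended on which libraries entered. With all libraries 12 of 20 were positive, with a median of 0.04. At an unadjusted p below 0.05, 1 was higher (Hspe1, background 5.98%) and 2 were lower (Hspb1 and Hspa1b, background 2.15%). In libraries 15 to 37, 19 of 20 were negative, 9 were lower at an unadjusted p below 0.05 (background 2.96%), and the median was -0.18. The small heat shock protein gene Hspb1 ranged from 2.61 to 4.26 CPM in SS, from 1.44 to 2.33 in treated libraries 30 to 37 and from 2.32 to 3.74 in libraries 51 to 54. Its log2 fold change was -0.48 ± 0.15 with all libraries and -0.70 in libraries 15 to 37. Hspa1b, an inducible heat shock protein, ranged from 5.79 to 8.18 in SS and from 3.63 to 6.45 in treated mice (log2 fold change -0.35 ± 0.13). The summed level of the list was 4430 to 5380 CPM in SS, 4140 to 5500 in treated libraries 30 to 37 and 5460 to 7160 in libraries 51 to 54.

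Microglial, complement and interferon lists had positive medians with all libraries, and medians from -0.10 to 0.04 in libraries 15 to 37. Of 21 microglial homeostasis genes 20 had positive log2 fold changes and 7 were higher at an unadjusted p below 0.05 (background 5.98%), with a median of 0.35. In libraries 15 to 37 the median was 0.04 and 1 was higher. The lysosomal protease gene Ctss ranged from 34.8 to 47.3 CPM in SS and from 35.01 to 109 in treated mice, with log2 fold changes of 0.56 ± 0.20 with all libraries and 0.14 in libraries 15 to 37. Trem2, a lipid receptor of microglia, was at 8.44 to 11.2 in SS and 11.1 to 16.4 in treated mice, and its log2 fold change was 0.37 ± 0.14 with all libraries and 0.27 in libraries 15 to 37.

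The interferon-stimulated list had 18 of 20 positive with a median of 0.28, and -0.04 in libraries 15 to 37. In these settings 3 and 0 members were higher at an unadjusted p below 0.05 (backgrounds 5.98 and 3.58%). Ifit3 reached 41.8 CPM in 1 treated mouse against a treated median of 5.99 and an SS range from 3.13 to 6.99. Of 14 complement genes tested 9 were positive (median 0.28, and -0.10 in libraries 15 to 37), with C3 at 0.93 ± 0.38 and a level below 1 CPM in every mouse. The 14 genes of major histocompatibility complex classes I and II had a median of 0.21 and 0.01, and the 16 genes of astrocyte reactivity 0.20 and 0.03, with and without libraries 51 to 54. Of 19 cytokines and chemokines tested 2 were higher and 3 lower at an unadjusted p below 0.05 (backgrounds 5.98 and 2.15%). The lower ones were Cx3cl1, the neuronal ligand of the microglial fractalkine receptor (-0.26 ± 0.08), Cxcl12 (-0.27 ± 0.11) and Ptgs2, which encodes cyclooxygenase 2 (-0.41 ± 0.17), and the higher ones were Il33 (0.36 ± 0.13) and Nfkbia. Cx3cl1 was at 690 to 837 CPM in SS and 508 to 835 in treated mice, and in hippocampus its log2 fold change was 0.12. In cortical libraries 15 to 37 the log2 fold changes were -0.28 for Cx3cl1, -0.29 for Cxcl12, -0.45 for Ptgs2 and 0.24 for Il33.

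Genes of energy metabolism and protein turnover also had positive medians with all libraries and medians near 0 in libraries 15 to 37. Of 61 cytosolic ribosomal protein genes 59 were positive with a median of 0.34, and 10 were higher at an unadjusted p below 0.05 (background 5.98%). In libraries 15 to 37, 0 were higher (background 3.58%) and the median was 0.04. Nuclear genes of complex I had a median of 0.32 and 0.02, mitochondrially encoded genes 0.28 and 0.02, the mitochondrial ribosome 0.16 and -0.0048, and the proteasome 0.21 and -0.0021, with and without libraries 51 to 54. The summed ribosomal protein level was 7540 to 9230 CPM in SS, 7800 to 10300 in treated libraries 30 to 37 and 11100 to 18500 in libraries 51 to 54. Ndufa1, a small subunit of complex I, ranged from 27.03 to 31.95 in SS and from 24.2 to 136 in treated mice.

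**Figure D4:**
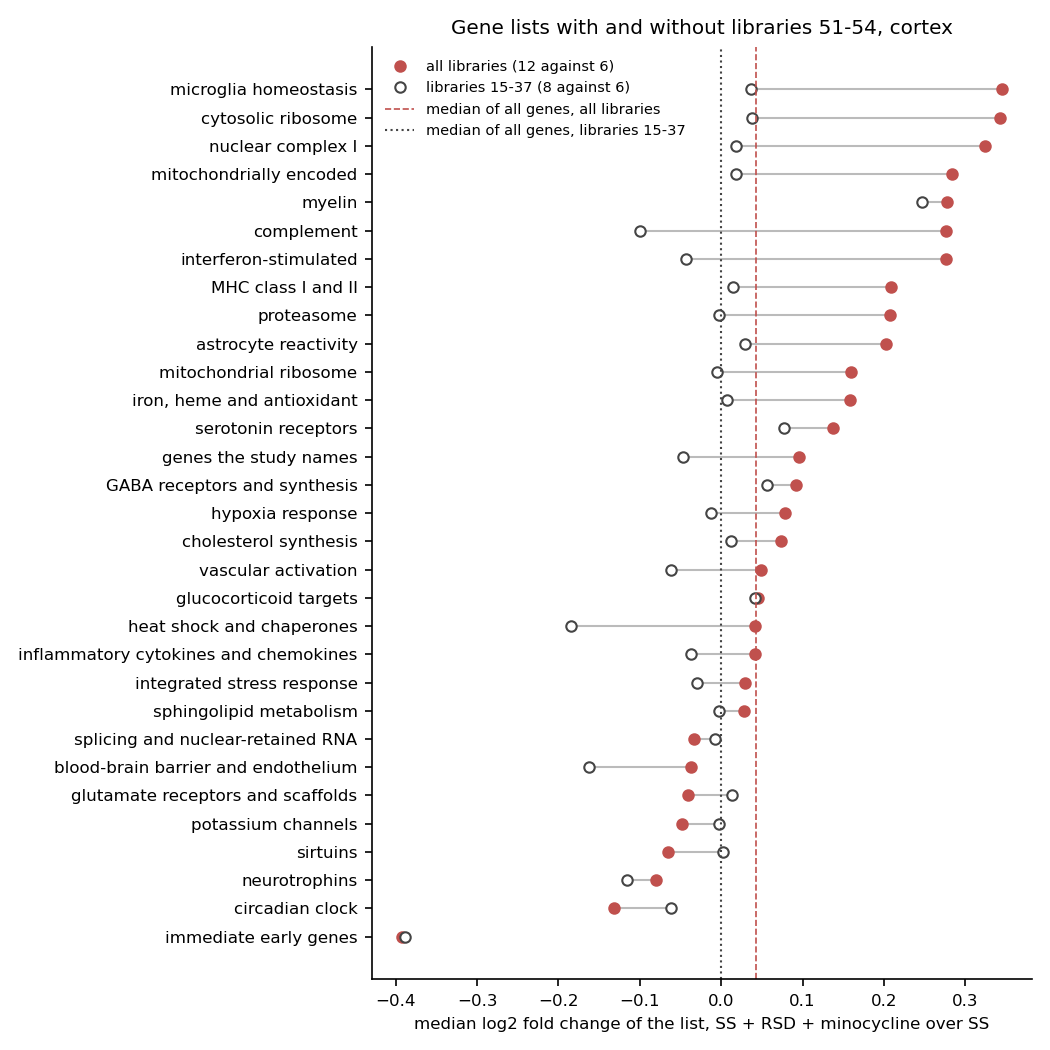
Median log2 fold change of SS + RSD + minocycline over SS (x axis) of each of 31 gene lists in cortex, with all libraries (filled) and in libraries 15 to 37 (open), and vertical lines at the medians of all genes. Immediate early genes stay at -0.39 in both, myelin at 0.28 and 0.25, while the ribosome, complex I, microglial and interferon medians move to within 0.05 of 0.

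Myelin genes had a positive median with and without these libraries. All 15 were positive in cortex with a median of 0.28, and 0.25 in libraries 15 to 37, but 1 was higher at an unadjusted p below 0.05 with all libraries and 0 in libraries 15 to 37. Mbp, the myelin basic protein, ranged from 1762 to 2496 CPM in SS and from 1310 to 4298 in treated mice (log2 fold change 0.37 ± 0.18). Mog ranged from 35.9 to 51.5 and from 28.5 to 81.7 (log2 fold change 0.35 ± 0.17), and 64.6% of its exonic length overlaps Zfp57 on the opposite strand. In the hippocampus of these mice all 15 were positive with a median of 0.50, and 13 were higher at an unadjusted p below 0.05 (background 7.86%), with Mbp at 0.72 and Mog at 0.62. In hippocampal libraries 15 to 36 all 15 myelin genes were positive with a median of 0.42, and 9 were higher (background 3.11%). The cortical minus the hippocampal change was negative for all 15 (median -0.19, and -0.08 without libraries 51 to 54), with 0 past an unadjusted p of 0.05. Leaving out treated mouse 9813 from libraries 15 to 37 gave a cortical median of 0.32 and 10 members higher at an unadjusted p below 0.05 (background 2.99%). That mouse had the lowest oligodendrocyte marker sum (2890 CPM, against 3580 to 5360 in SS), so leaving it out raises the treated values by construction. With each of the 18 libraries left out in turn from the main fit, the cortical median ran from 0.185 to 0.343. The count of members higher at an unadjusted p below 0.05 ran from 0 to 7 in those fits.

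Transmitter and ion channel lists had small medians and single members of larger size. With all libraries the backgrounds at an unadjusted p below 0.05 were 5.98% higher and 2.15% lower. Of 19 GABA genes 6 were higher at an unadjusted p below 0.05 (median 0.09), and the 4 of smallest p were the receptor subunits Gabra5 (0.34 ± 0.13), Gabrb1 (0.32 ± 0.13) and Gabrg1 (0.57 ± 0.25) and the vesicular transporter Slc32a1 (0.38 ± 0.15). Of 12 serotonin receptor genes tested 4 were higher (median 0.14), Htr1d, Htr4, Htr2c and Htr1f. Htr4 ranged from 1.09 to 2.35 CPM in SS and from 1.42 to 6.84 in treated mice (log2 fold change 0.83 ± 0.35), and Htr2c ranged from 11.4 to 35.2 and from 16.1 to 109 (0.93 ± 0.42). Of 32 potassium channel genes (median -0.05) 3 were higher, Kcna4 (0.53 ± 0.18), Kcna5 (1.37 ± 0.48) and Kcnn3 (0.62 ± 0.29). Of 29 glutamate receptor and scaffold genes 1 was higher (Grik1, 0.26 ± 0.12) and 1 was lower (Homer1). Of 16 neurotrophin genes 4 were higher and 3 lower, and after Nptx2 and Bdnf the smallest p were those of Ntf3 (1.26 ± 0.40) and the neurotrophin receptor gene Ngfr (1.87 ± 0.63). Ngfr was at 0.74 to 1.59 CPM in SS and 0.98 to 17.3 in treated mice, with a treated median of 1.63. Without libraries 51 to 54, 1 GABA gene and 2 serotonin receptor genes were higher at an unadjusted p below 0.05 (background 3.58%), with medians of 0.06 and 0.08. There the log2 fold change was 0.11 for Gabra5, 0.25 for Gabrb1, 0.25 for Gabrg1, 0.18 for Slc32a1, 0.87 for Htr4, 0.83 for Htr2c and 0.22 for Htr1f. It was 0.31 for Kcna4, 1.15 for Kcna5, 0.51 for Kcnn3, 0.14 for Grik1, 0.66 for Ntf3 and 1.39 for Ngfr. Treated mouse 9813, highest in striatal markers, stayed in that setting. It was at 6.84 CPM for Htr4, against 1.53 to 3.68 in the other treated mice there. It was at 109 for Htr2c (others 16.1 to 48.5) and 16.8 for Kcna5 (others 2.04 to 4.76). For Ngfr, mice 9813 and 9812 were at 8.67 and 9.38, and the others at 0.98 to 1.69. Gabra5, Gabrb1 and Htr1f were not highest in mouse 9813 there. In libraries 51 to 54, Htr4, Htr2c, Kcna5 and Ngfr were highest in mice 5801 and 9890.

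The striatal markers were all positive, 9 of 10 at an unadjusted p below 0.05, with a median of 1.28 (1.14 in libraries 15 to 37 and 0.61 there without mouse 9813). With their sum as a term, 1 of 19 GABA genes, 0 of 12 serotonin receptor genes and 0 of 32 potassium channel genes were at an unadjusted p below 0.05. Few genes of any kind were in that model (0.886% higher and 1.29% lower), so low counts there are not particular to these lists. Of the 9 thalamic and hypothalamic markers tested all were positive (median 1.71, 6 at an unadjusted p below 0.05), but in libraries 15 to 37 only 5 were tested, with a median of 0.37 and 0 at an unadjusted p below 0.05. The hippocampal markers had a median of 0.42, and 0.10 in libraries 15 to 37.

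Stress hormone, clock, lipid and redox lists had few members at an unadjusted p below 0.05 (backgrounds 5.98% higher and 2.15% lower). Of 20 glucocorticoid targets 2 were higher at an unadjusted p below 0.05 and 0 lower (median 0.05). Ddit4, a stress-induced inhibitor of mTOR signaling, ranged from 23.98 to 38.2 CPM in SS and from 23.9 to 73.1 in treated mice (log2 fold change 0.55 ± 0.18), and Nfkbia had 0.37 ± 0.15. Of 19 clock genes tested 15 were negative (median -0.13). At an unadjusted p below 0.05, 0 were higher and 2 lower, Per2 (-0.47 ± 0.21) and Bhlhe40 (-0.32 ± 0.14), a larger share than the 2.15% of all genes. Cholesterol synthesis (24 genes, median 0.07) and sphingolipid metabolism (36 genes, median 0.03) had 1 higher member each, Sqle (0.20 ± 0.08) and Degs1 (0.25 ± 0.10). The integrated stress response (20 genes) had 1 higher member, Phgdh (0.28 ± 0.12), and a median of 0.03. Of 20 hypoxia genes 1 was higher (Ddit4) and 1 lower (Pfkfb3, -0.31 ± 0.12), and of 27 iron, heme and antioxidant genes tested 0 passed in either direction (median 0.16). Splicing and nuclear-retained RNAs (29) had a median of -0.03 with 0 past an unadjusted p of 0.05. Without libraries 51 to 54 the log2 fold change was 0.48 for Ddit4, 0.32 for Nfkbia, -0.27 for Per2, -0.29 for Bhlhe40, -0.28 for Pfkfb3, 0.14 for Sqle, 0.07 for Degs1 and 0.10 for Phgdh. The median of iron, heme and antioxidant genes was 0.007 there.

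Of 7 sirtuin genes, which encode NAD-dependent deacylases, Sirt2 was higher at an unadjusted p below 0.05 (112 to 128 CPM in SS, 113 to 178 in treated mice, log2 fold change 0.21 ± 0.08), and the list's median was -0.07. Sirt2 is abundant in oligodendrocytes, and in hippocampus its log2 fold change was 0.27. In cortical libraries 15 to 37 that of Sirt2 was 0.13 and the list's median 0.0021. Of the 28 genes that the study names, a list chosen on these samples and so no independent evidence of direction, 1 was higher (Htr4) and 2 were lower (Bdnf and Foxf1), with a median of 0.10, and 1 and 4 in libraries 15 to 37, with a median of -0.05.

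The 11 meningeal markers had a median of 0.11 with all libraries and -0.31 in libraries 15 to 37, where all were negative, and the red cell precursor markers 0.01 and -0.30. Among the remaining cell markers, oligodendrocyte (median 0.31), oligodendrocyte precursor (0.21), interneuron (0.27), astrocyte (0.15), microglial (0.24), neutrophil (0.59, 5 of 10 tested), macrophage (0.09), lymphocyte (-0.0044) and excitatory neuron markers (-0.15) had 0 members with an adjusted p below 0.05. Without libraries 51 to 54 the medians were 0.26 for oligodendrocyte, 0.11 for precursor, 0.03 for interneuron, 0.06 for astrocyte, 0.02 for microglial, 0.65 for neutrophil (2 tested), -0.19 for macrophage, -0.13 for lymphocyte and -0.16 for excitatory neuron markers. The neutrophil markers summed to at most 6.97 CPM in any library.

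Over all genes, the hippocampus of the same mice also had 0 of 21666 genes past the adjusted threshold (smallest adjusted p = 0.067), with 1703 higher and 1819 lower at an unadjusted p below 0.05. DESeq2 called 359 genes there, 65 higher and 294 lower. The cortical change minus the hippocampal change had 0 of 19491 genes past it, with 687 higher and 506 lower at an unadjusted p below 0.05 (3.52 and 2.6%). The SS change minus the AA change in cortex had 0 of 18860, with 496 higher and 107 lower at an unadjusted p below 0.05 (2.63 and 0.567%, and 3.2% together). In AA cortex itself 175 genes (0.928%) passed the adjusted threshold for the same contrast, but the difference between genotypes was not shown for any gene.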

How the data were processed

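RNA from cortex and hippocampus was sequenced by the authors, who aligned the reads to GRCm39 with STAR, took reads per gene from GENCODE during mapping and deposited raw counts of 55416 genes per tissue. The STAR version, annotation release and strand setting are not given in the sources used here. Of these columns, 3 matched no sample and were left out. The 4 rows that name no gene stayed out of library sizes and gave the unmapped and outside-gene shares. Mice 9887 (SS + minocycline) and 9877 (AA + RSD + minocycline) had identical values in both tissues and were left out.

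Counts were tested with edgeR 4.0.16 in R 4.3.3 (filterByExpr with a minimum count of 10 and total of 15, TMM factors, quasi-likelihood F test, Benjamini-Hochberg adjustment, threshold 0.05). All SS cortex libraries entered one model and the contrast took the 12 and 6 members. The tissue difference was fitted with the mouse as a block, since the label number ties the libraries of a mouse, in 12 treated and 5 untreated mice. DESeq2 1.42.0, other scalings and filters, fewer libraries, added terms and each library left out in turn were alternatives, and the scripts were tested on simulated data. Mice are separate animals, but nothing states separate extraction batches.

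Named genes were the 8 of smallest p in each direction among genes with a mean log2 CPM of 1 or more, and up to 4 of smallest p from each of 31 gene lists. Some genes picked by this rule are not reported here. Others were named after their values were seen. The members and lists were chosen with earlier results of these data known. There were 17 marker lists. Promoter letters are from RefSeq (GRCm38.p6) and gene positions from the GRCm39 annotation.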

Additional observations from a re-analysis of the deposited data

Results flagged for a closer look

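In groups of 6, the SS libraries were examined for 1 mouse whose gap to the nearest other, divided by the range of the group, exceeded Dixon's 95% critical value for that size. Chance exceeds it in about 1 of 20 groups, and 146 groups were examined, of which 7 exceeded it. SS mouse 9903 stood apart in Ttr (0.791), the summed choroid plexus markers (0.889), Xbp1, a factor of the unfolded protein response (0.796), and, with the lowest value, the summed lymphocyte markers (0.768). SS mouse 5785 stood apart in the share of unmapped reads (0.803) and in Hmox1, the heme-degrading enzyme (0.65), and SS mouse 5854 in Mbp (0.674).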

How the results depend on the processing

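With all 18 cortex libraries 0 genes passed, and 0 passed with RLE size factors, in the model of the 18 libraries, with every SS + RSD + minocycline and SS library of the tissue, in libraries 15 to 37, and with the number range, the outside-gene share or the striatal sum as a term. DESeq2 called 4, the absence of a filter 1 (Ttr), and an unadjusted p below 0.05 would pass 1707. Leaving out 1 library gave 0 to 1 genes, the 1 being Ttr, and its log2 fold change ran from -5.463 to 0.1455, the latter without SS mouse 9903. In hippocampus DESeq2 called 359 genes and edgeR 0 under its other settings. The cause was not tested.

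The difference between tissues had 0 genes with the mouse as a block and 0 with no replicate block, so the block altered no call. Replicate numbers within the SS groups follow the order of the labels and pair no samples.

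Some small log2 fold changes had the opposite sign in libraries 15 to 37, namely Ifitm3 (-0.05922), Asah1 (-0.008959), Hsp90aa1 (-0.04113) and Prdx1 (-0.002769). With the number range as a further term there, they were -0.05558, -0.01149, -0.04253 and -0.006722, with Gpx1 at -0.004031. Without mouse 9813 there, Ifitm3 was -0.09266, Psmb8 -0.006108, mt-Co1 -0.01369, Hsp90aa1 -0.03499 and Gpx1 -0.001197. Without mouse 9903 there, Ifitm3 was -0.06025, Asah1 -0.006423, Atf5 -0.003412, Hsp90aa1 -0.04768 and Prdx1 -0.009914. With all libraries of the 2 treatments, Psat1 was -0.01763, Grm3 -0.02853 and Hmox1 -0.05221. With the striatal term, Nr1d1 was 0.004177 and Slc32a1 -0.0005006. The settings added to libraries 15 to 37, the striatal term and the hippocampal and tissue settings on libraries 15 to 37 were chosen after seeing the data.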
